A study of Rattus norvegicus with 8 samples.

Results

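Catalase and 9 other enzymes that handle reactive oxygen species were followed in the striatum of rats that self-administered methamphetamine (METH) or saline. The members are the superoxide dismutases Sod1, Sod2 and Sod3, catalase (Cat), the glutathione peroxidases Gpx1, Gpx3 and Gpx4, the peroxiredoxin Prdx6, haem oxygenase Hmox1 and the quinone reductase Nqo1. They make up 10 of the 17337 genes in the count table, and all 10 were among the 12014 genes with enough reads to be tested. The group was named with the METH against saline values of these genes already known and was selected on the drop of Cat. The values of that contrast are therefore given for the members as a description, with no p-value.

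The animals were male Sprague-Dawley rats, labelled WT for genotype, with 4 rats in each of 2 groups. All of them had been trained to press a lever for food and carried a jugular catheter. Rats of the METH group pressed for intravenous METH at 0.05 mg/kg per infusion and rats of the saline group for saline, in sessions of 2 h a day over 16 days, and rats that responded stably were used. Striatum was taken under ketamine and xylazine anaesthesia in both groups. Age, the dorsal or ventral position of the tissue and the interval between the last session and tissue collection are not given in the sources used here. Each RNA library holds the tissue of 1 rat, and poly(A) RNA was sequenced.

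Superoxide formed by mitochondria, oxidases and the oxidation of dopamine is converted to hydrogen peroxide by superoxide dismutases: Sod1 in the cytosol, Sod2 in mitochondria and Sod3 outside the cell. Catalase, a haem enzyme of peroxisomes, splits hydrogen peroxide into water and oxygen without a cofactor to be regenerated, whereas glutathione peroxidases and peroxiredoxins reduce peroxides with thiols that are recycled at the expense of NADPH. Hmox1 and Nqo1 are textbook targets of the transcription factor Nrf2, and METH is known for releasing dopamine in the striatum, where dopamine oxidation is a source of these oxidants.

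The upstream sequences of Cat and Sod2 are shown because Sod2 forms hydrogen peroxide, the oxidant that catalase splits. They are RefSeq sequences of the build GRCr8, 250 bases before the annotated start, written 5′ to 3′ on the gene's own strand, and a sequence was found in that table for 7 of the 10 members. The Cat window lies at chr3:110329527-110329776 on the minus strand, and its capitals mark the letters CCAAT on either strand. The Sod2 window lies at chr1:50050169-50050418 on the minus strand, and its capitals mark the letters GGGCGG (the GC box) on either strand.
Cat: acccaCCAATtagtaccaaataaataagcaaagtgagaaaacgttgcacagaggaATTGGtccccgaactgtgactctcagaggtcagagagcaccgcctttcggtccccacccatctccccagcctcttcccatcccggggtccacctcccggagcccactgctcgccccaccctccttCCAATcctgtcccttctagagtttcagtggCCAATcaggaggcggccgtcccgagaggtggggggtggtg
Sod2: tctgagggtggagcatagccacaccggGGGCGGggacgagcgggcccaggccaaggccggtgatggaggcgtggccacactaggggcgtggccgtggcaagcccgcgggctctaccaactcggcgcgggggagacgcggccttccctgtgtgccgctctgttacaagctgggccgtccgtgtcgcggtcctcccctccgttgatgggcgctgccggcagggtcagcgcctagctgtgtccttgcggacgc
The Cat window held CCAAT 4 times and no GC box, and the Sod2 window held 1 GC box and no CCAAT. The 7 members have 9 windows, since Gpx4 has 3, of which 2 overlap. The former motif stood in 5 of the 9 windows, which belong to 4 genes, and in 34.0% of all 33469 windows of this length. The GC box stood in 7 of the 9, which belong to 6 genes, and in 30.5% of all windows. The core of the antioxidant response element, TGACNNNGC, was found in 1 of the 9, that of Sod2 (10.1% of all windows), and the FoxO core GTAAACA in 0 of them (3.21%). These are matches of letters in a short window, and they carry no measurement of binding.

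Read totals ran from 18135939 to 21211920 per rat. At this depth 3 counts, the upper limit that a count of 0 allows, correspond to 0.142 to 0.169 CPM (reads of a gene relative to the size of its library), far below the level of every member, and these values cover counting error only. Striatal projection neuron markers were abundant in every library, with Ppp1r1b (DARPP-32) between 6785 and 10288 CPM. Saline 3 and METH 3 lay at opposite ends of the first principal component of all genes, which held 26.4% of the variance, with scores of -24.6 and 39.5. Slc17a7, the vesicular glutamate transporter of cortical neurons, reached 65.8 CPM in saline 1 against 3.12 to 12.2 CPM in the other rats, and the cortical genes Tbr1 and Neurod6 were also highest in saline 1. The hypothalamic peptide gene Oxt reached 49.8 CPM in METH 4 and 3.75 CPM in saline 2, and the related Avp reached 28.2 CPM in saline 2 and 18.3 CPM in METH 4, against at most 1.71 CPM for either gene in the other rats. Member values without saline 3 and METH 3 are given with the results.

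Cat was lower in the METH rats, and it was the only one of the 10 members whose groups did not overlap. It measured 30.7, 29.2, 42.1 and 38.3 CPM in saline 1 to 4 and 17.0, 17.8, 16.2 and 17.8 CPM in METH 1 to 4. Every METH rat lay below every saline rat, and the lowest saline rat was still 1.64 times the highest METH rat. The group means were 35.1 ± 6.13 and 17.2 ± 0.752 CPM (SD, n = 4 each), a log2 fold change of -1.03 (SE 0.12), or 0.490 times the saline level. These levels rested on 560, 585, 872 and 810 Cat reads for saline 1 to 4 and on 348, 373, 287 and 338 for METH 1 to 4. The spread between rats differed as well: the coefficient of variation was 17.5% among saline rats, where counting alone gives 3.76%, and 4.37% among METH rats, where counting alone gives 5.45%. Without saline 3 and METH 3 the log2 fold change was -0.90 (SE 0.12, n = 3 each), and leaving out any one rat gave -1.11 to -0.93.

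Across all genes tested, 62 (0.516%) were called by edgeR's quasi-likelihood test at an FDR under 0.05 and an average log2 CPM above 1, of which 54 were higher and 8 (0.0666%) lower in METH rats. Cat was the 1 member among them, as lower, and 768 genes (6.39%) had groups that did not overlap. As Cat was chosen by this contrast, nothing is read from its place in these counts. Its log2 fold change ranked 52 from the lowest of 12014, and that of Actb, a gene often used for scaling, was 0.02. The other 9 members were spread around 0. Of all 10 members, Cat included, 5 were positive and 5 negative. Their median log2 fold change was 0.02, beside a median of -0.01 over all genes tested.

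**Figure D1:**
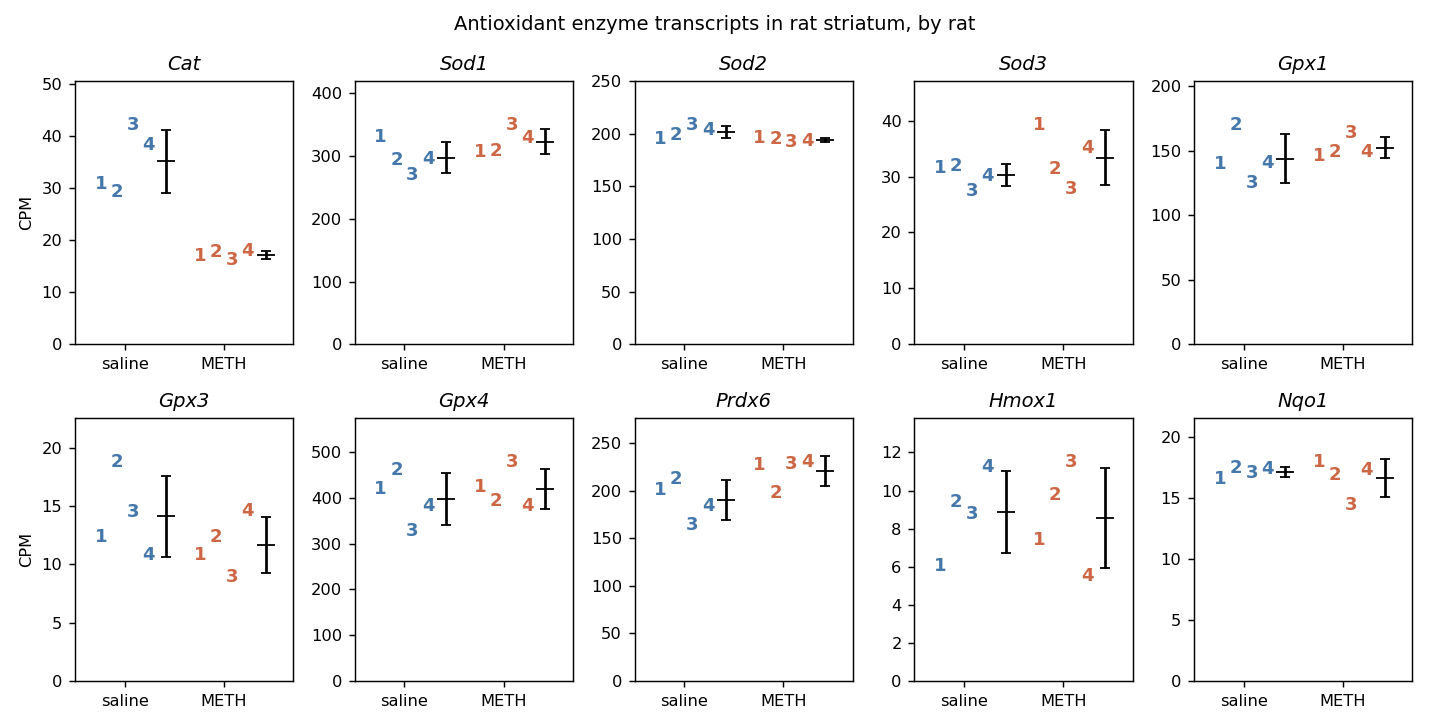
CPM of each of the 10 enzymes in each rat (points, saline and METH groups of 4, with mean and SD as bars); every panel has its own vertical axis. For Cat the METH rats lie at 16.2 to 17.8 CPM and the saline rats at 29.2 to 42.1 CPM, while in the other 9 panels the groups overlap.

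The superoxide dismutases, which make the hydrogen peroxide that catalase removes, showed no such separation. Sod1, the cytosolic copper-zinc enzyme, measured 330.5, 294, 270 and 295 CPM in saline 1 to 4 and 306, 308, 350 and 329 CPM in METH 1 to 4. The groups overlapped, since saline 1 lay above 3 of the 4 METH rats, and the means were 297 ± 25.0 and 323 ± 20.5 CPM (SD), a log2 fold change of 0.12 (SE 0.08). Sod2, the mitochondrial manganese enzyme, varied little: it measured 195.0, 199, 208 and 203 CPM in saline rats and 196, 195, 192 and 193 CPM in METH rats. Its log2 fold change was -0.05 (SE 0.06), and its coefficient of variation was 2.85% in saline and 0.947% in METH rats. Sod3, the secreted enzyme, measured 31.6, 31.8, 27.5 and 30.1 CPM in saline rats and 39.3, 31.3, 27.8 and 35.1 CPM in METH rats. METH 1 and METH 4 were the 2 highest rats and METH 3 lay near the lowest saline rat, and the log2 fold change was 0.14 (SE 0.11). Thus Sod2 and Cat, neighbours in the pathway, had saline means of 201 ± 5.74 and 35.1 ± 6.13 CPM and METH means of 194 ± 1.84 and 17.2 ± 0.752 CPM, values that give changes within each gene and not relative amounts, because CPM does not account for transcript length.

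The glutathione peroxidases, which reduce peroxides with glutathione, overlapped between the groups in all 3 cases. Gpx1, the abundant cytosolic and mitochondrial form, measured 140.0, 170, 125 and 141 CPM in saline rats and 146, 149, 164 and 149 CPM in METH rats, with a log2 fold change of 0.08 (SE 0.09). Its saline rats bracketed all METH rats. Gpx4, which reduces lipid hydroperoxides in membranes, measured 420, 461, 327 and 381 CPM in saline rats and 424, 393, 479 and 382 CPM in METH rats, with a log2 fold change of 0.08 (SE 0.10). The lowest rat was saline 3 and the highest METH 3. Gpx3, the secreted form, measured 12.3, 18.8, 14.5 and 10.8 CPM in saline rats and 10.8, 12.3, 8.87 and 14.5 CPM in METH rats, with a log2 fold change of -0.28 (SE 0.19). Saline 2 was the highest and METH 3 the lowest rat, and the value moved from -0.40 without METH 4 to -0.11 without saline 2.

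Prdx6, a peroxiredoxin that also acts on phospholipid peroxides, had the largest positive log2 fold change of the 10 members. It measured 200, 212, 164 and 184 CPM in saline 1 to 4 and 227, 197, 228 and 231 CPM in METH 1 to 4. Of the METH rats 3 lay above all saline rats, while METH 2 lay within the saline range. The means were 190 ± 20.6 and 221 ± 15.6 CPM (SD), with a log2 fold change of 0.22 (SE 0.09) that was 0.14 without saline 3 and METH 3. For Gpx4, Prdx6 and Sod2 the RefSeq gene table holds 4, 3 and 1 pseudogenes by symbol, none of which has a row in the count table, so that reads shared with such copies make these 3 values less certain.

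The Nrf2 targets Hmox1 and Nqo1 did not separate the groups. Hmox1, which breaks down haem, measured 6.04, 9.40, 8.74 and 11.2 CPM in saline rats and 7.39, 9.76, 11.5 and 5.54 CPM in METH rats. The lowest and the highest rat were both METH rats, and the log2 fold change was -0.05 (SE 0.24) with a coefficient of variation of 24.4% in saline and 30.7% in METH rats. Its sign depended on single animals, from -0.23 without METH 3 to 0.11 without METH 4. Nqo1, which reduces quinones with 2 electrons, measured 16.6, 17.4, 17.0 and 17.4 CPM in saline rats and 17.96, 16.9, 14.4 and 17.2 CPM in METH rats. Apart from METH 3, all rats lay within 16.6 to 17.96 CPM, and the log2 fold change was -0.04 (SE 0.11) with all rats and 0.02 without METH 3.

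**Figure D2:**
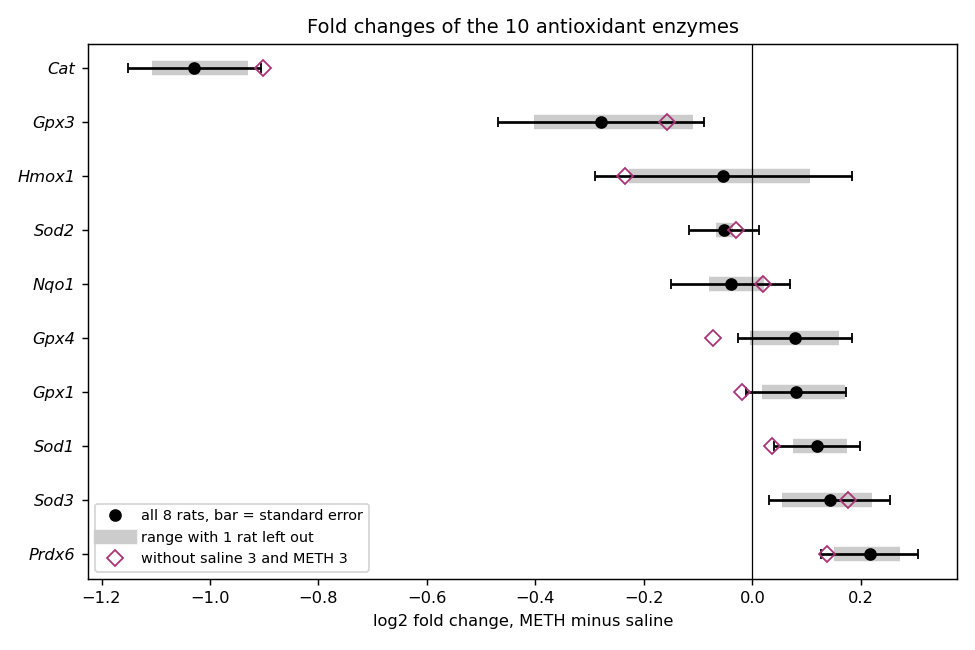
Log2 fold change (METH minus saline, edgeR) of the 10 enzymes with its standard error, for all 8 rats and without saline 3 and METH 3. Cat stands at -1.03 and -0.90, and the other 9 lie between -0.28 and 0.22 with all rats.

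The 2 rats at the ends of the first principal component were often the extremes of a member too. Saline 3 was the lowest of all 8 rats in 5 members (Sod1, Sod3, Gpx1, Gpx4 and Prdx6) and METH 3 the highest in 3 (Sod1, Gpx4 and Hmox1). The other way round, METH 3 was the lowest rat in Cat, Sod2, Gpx3 and Nqo1, and saline 3 the highest in Cat and Sod2. Without both rats, the log2 fold changes of Gpx1, Gpx4 and Nqo1 were -0.02, -0.07 and 0.02, opposite in sign to those with all rats, while that of Cat was -0.90.

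Other genes followed the pattern of Cat over the 8 rats more closely than any member did. By the root mean square difference of mean-centred log2 CPM, the nearest were Asb13 (0.168), Aplnr (0.199), Magee2 (0.212), Gtf2a1 (0.222) and Elavl3 (0.222), where the median over all genes tested was 0.559. These genes were picked for their likeness to Cat, so their lower level in METH rats is part of the choice. Asb13, a substrate-recruiting subunit of ubiquitin ligases, went from 14.3 ± 3.55 to 8.19 ± 1.185 CPM (SD, n = 4 each), and Elavl3, a neuronal RNA-binding protein, from 78.6 ± 12.8 to 51.5 ± 5.12 CPM. The genes beside Cat on the chromosome, by their order in GRCr8, had smaller differences. Cd44, Pdhx and Apip on one side had log2 fold changes of -0.07, -0.02 and -0.10, and Abtb2, Nat10 and Caprin1 on the other had -0.25, 0.03 and -0.08. Of these 6 neighbours 0 were called by edgeR's quasi-likelihood test, and in all 6 the groups overlapped. Over all genes tested 0.516% were called and 6.39% had groups that did not overlap. With 6 genes, neither count can be told from those shares.

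**Figure D3:**
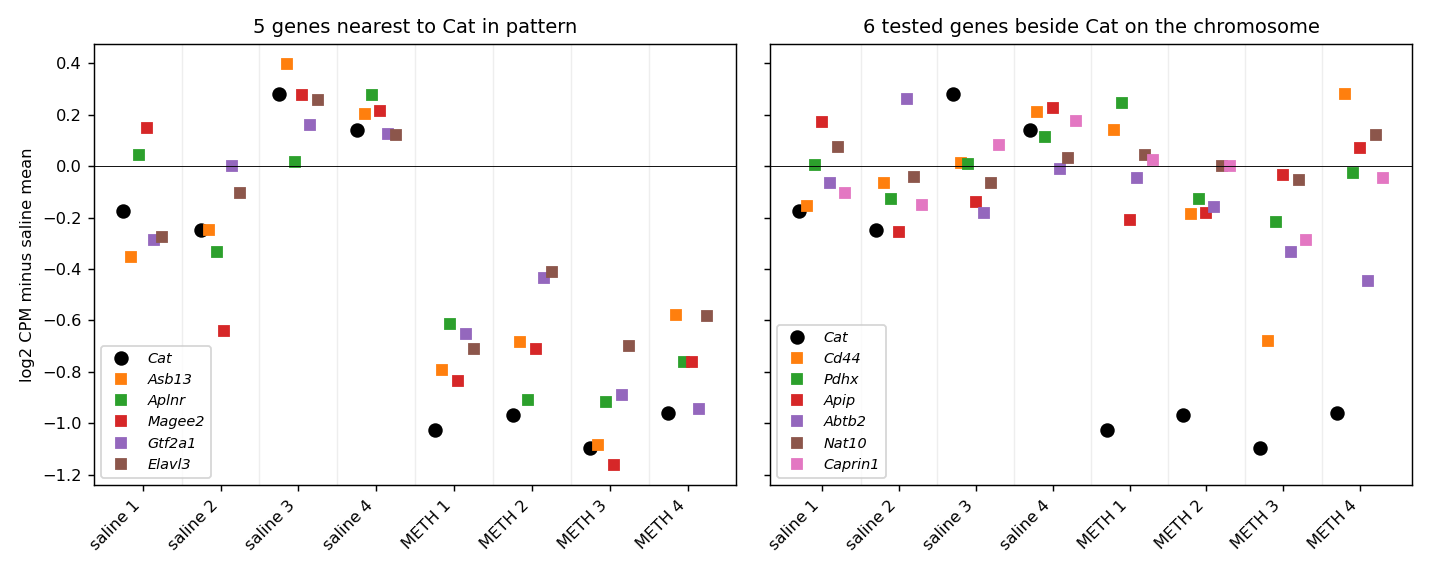
Log2 CPM of each rat minus the saline mean for Cat (black) with the 5 genes nearest to it in pattern (left) and the 6 tested genes beside it on the chromosome (right). The genes at left, picked for this likeness, lie lower in the METH rats, and those at right scatter around 0 in both groups.

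Cat is made in many cell types and is abundant in red blood cells, and in bulk striatum fewer cells of a type and less RNA per cell cannot be told apart. Erythrocyte markers summed to 134 to 257 CPM in saline and 127 to 242 CPM in METH rats, overlapping widely. Within each group the rat with the highest Hbb-b1 (saline 2 at 30.5 CPM and METH 3 at 32.4 CPM) was the rat with the lowest Cat. This inverse order did not hold through the saline group. There saline 1 had the lowest Hbb-b1 but less Cat than saline 3 and saline 4. A relation between Hbb-b1 and Cat was not tested. Hba1 was at 0 in every rat while Hbb-b1 was not.

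Microglial markers summed to 499 to 576 CPM in saline and 454 to 551 CPM in METH rats, with 8 of 12 log2 fold changes negative and a median of -0.10. Of these 12 genes 1 was called, against 0.516% of all genes tested. It was Cx3cr1, the fractalkine receptor, which fell from 31.2 ± 4.43 to 18.8 ± 3.44 CPM (log2 fold change -0.73, SE 0.14, FDR = 0.0408 by edgeR's quasi-likelihood test). However, its FDR ran from 0.000474 to 0.144 over the alternatives, the highest without saline 4. In marker lists this short, 0 or 1 called genes cannot be told from that share. Endothelial and pericyte markers were negative in 11 of 11, with a median of -0.21 and sums of 580 to 837 CPM in saline and 555 to 600 CPM in METH rats, and 0 were called. Of these 11 genes 5 had an unadjusted p under 0.05, against 11.1% of all genes tested. The highest sum, 837 CPM, was that of saline 2, which was the highest of all rats in each marker except Pecam1. Its Slco1a2 measured 96.4 CPM, against 56.8 to 65.6 CPM in the other saline rats. Markers of a cell type can vary together between rats, so these 11 genes do not count as independent. In 2 of the 11, Slco1a2 at -0.45 (FDR = 0.236, edgeR) and Tek at -0.34 (FDR = 0.309), every METH rat lay below every saline rat. Over all genes tested, 6.39% had groups that did not overlap, in either direction. The range ran from Abcc9 at -0.47 (FDR = 0.286) to Cdh5 at -0.03. Oligodendrocyte markers (13971 to 19968 and 13053 to 19406 CPM, median -0.11), astrocyte markers (4606 to 5674 and 4908 to 5943 CPM, median 0.11) and projection neuron markers (15424 to 16458 and 16303 to 20307 CPM, median 0.10) had 0 called. The lowest FDR among these 3 lists was that of Opalin, a myelin protein gene, at a log2 fold change of -0.52 (FDR = 0.0632, edgeR), with Mbp at 0.08. Of the 10 astrocyte markers 6 were positive and 4 negative. They ranged from Slc1a2 at -0.19 (FDR = 0.755, edgeR) to the connexin Gjb6 at 0.44 (FDR = 0.137). Choroid plexus markers were at low levels, and their sums did not overlap, at 7.03 to 7.95 CPM in saline and 8.52 to 12.6 CPM in METH rats. Of the 4 tested 3 were positive, with a median of 0.61 and 0 called. Clic6 was at 0.79 (FDR = 0.412, edgeR), Folr1 at 0.45 (FDR = 0.525) and Kcne2 at -0.36 (FDR = 0.802). Otx2 was at 0 in every rat and Ttr at most 2.03 CPM. Markers of neurons outside the striatum summed to 3354 to 3915 and 4183 to 6294 CPM, without overlap. Most of it was Nrgn (log2 fold change 0.36, FDR = 0.263, edgeR), which striatal neurons also express. Slc17a7 was at -1.54 (SE 0.86), Avp at -0.41 (SE 1.30) and Oxt at 3.64 (SE 1.30). Over the alternatives Slc17a7 ran from -2.06 to 0.96 and Oxt from 0.29 to 6.27. The part of any of these cell types in the Cat result was not tested.

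**Figure D4:**
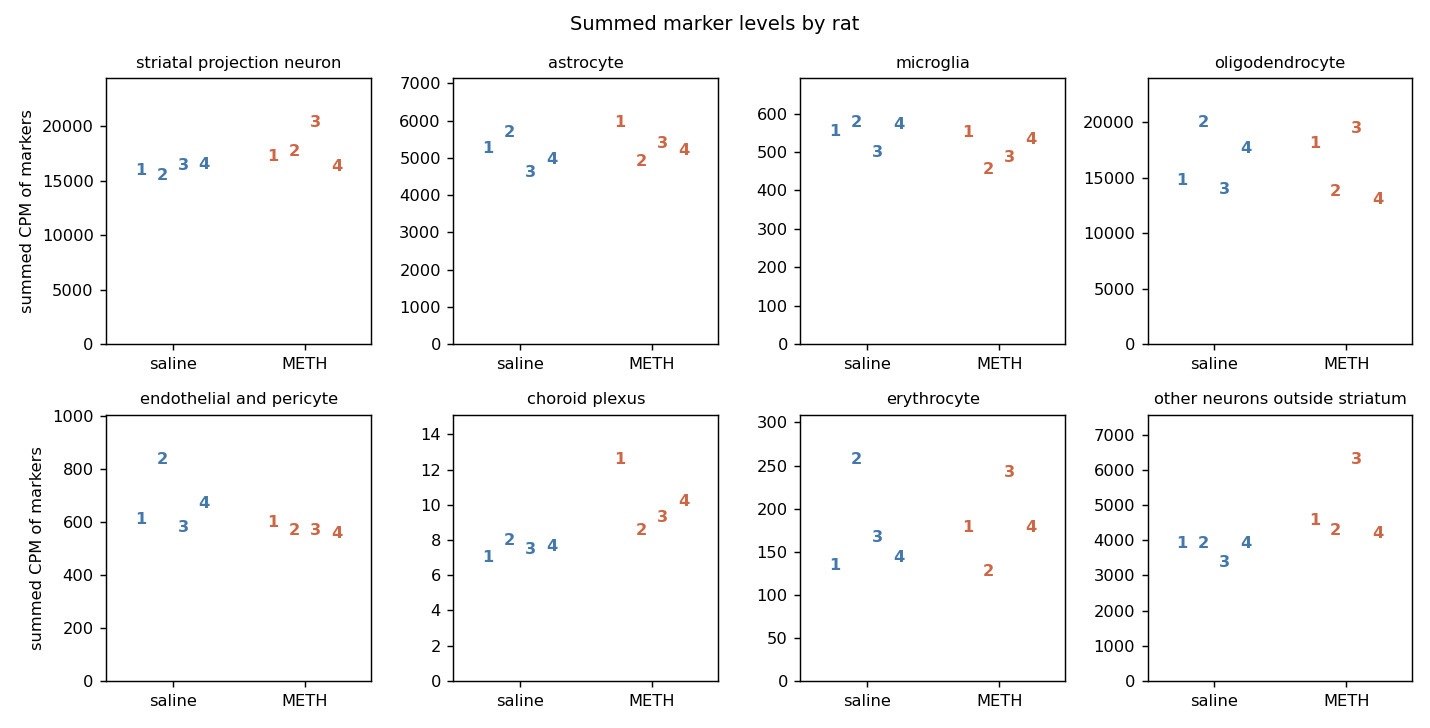
Summed CPM of each cell type's marker list in each rat, by group. The erythrocyte, microglial, oligodendrocyte, astrocyte, projection neuron, and endothelial and pericyte sums overlap between the groups. The choroid plexus sums and the sums of neurons outside the striatum, which are mostly Nrgn, are higher in all 4 METH rats.

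The rest of the antioxidant system was read from 9 further lists, with 165 of 170 genes in the count table and 151 tested. By edgeR's quasi-likelihood test 0 of the 151 were called, against 0.516% of all genes, and 13 had an unadjusted p under 0.05, against 11.1% of all genes. DESeq2 called 2 of them (Srxn1 and Mafk), edgeR's exact and likelihood ratio tests 1 (Srxn1) and limma-voom 0. The log2 fold changes were positive in 74 and negative in 77, with a median of -0.01. The groups did not overlap in 6 genes higher and 2 lower in METH rats, beside 6.39% of all genes tested in either direction.

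Enzymes with jobs close to those of the members had list medians near 0. The 7 other peroxidases and peroxiredoxins tested had a median of -0.06, between Prdx1 at -0.14 (FDR = 0.584) and the mitochondrial and peroxisomal Prdx5 at 0.21 (FDR = 0.436, edgeR). Among 19 thioredoxin and glutaredoxin genes, with a median of 0.05, sulfiredoxin (Srxn1), which repairs over-oxidised peroxiredoxins, had the lowest FDR of all 9 lists. It measured 70.3, 73.2, 72.4 and 63.2 CPM in saline rats and 79.2, 84.3, 102 and 96.4 CPM in METH rats. Every METH rat lay above every saline rat, with a log2 fold change of 0.37 (SE 0.09) that did not pass the threshold (FDR = 0.130 by edgeR's quasi-likelihood test, 0.0196 to 0.355 over the alternatives). The 25 genes of glutathione synthesis and transfer had a median of 0.07, between Mgst1 at -0.12 (FDR = 0.834, edgeR) and Gstm2 at 1.19 (SE 0.53, FDR = 0.430). Gstm2 rested on few reads, 13, 19, 8 and 11 for saline 1 to 4 and 55, 9, 29 and 21 for METH 1 to 4. The methionine sulfoxide reductase Msra was the lowest thioredoxin-system gene at -0.20 (FDR = 0.637), and the 11 genes that supply NADPH had one of 0.01, with the cytosolic Idh1 lowest at -0.17 (FDR = 0.627, edgeR).

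Among 13 genes of haem breakdown, iron and metal binding the median was 0.07, with the metallothionein Mt3 highest at 0.17 (FDR = 0.600, edgeR). Slc40a1 (ferroportin), the iron exporter, measured 3.68 ± 0.243 CPM in saline and 2.52 ± 0.393 CPM in METH rats without overlap, but its log2 fold change of -0.54 (SE 0.23) did not pass the threshold (FDR = 0.415, edgeR). The 15 regulators of the Nrf2 and FoxO pathways had a median of 0.01. They ranged from Bach2, a repressor of Nrf2 target genes listed here as RGD1562865, at -0.54 (FDR = 0.538, edgeR) to the small Maf protein Maff at 0.74 (SE 0.33, FDR = 0.430). Mafk, another small Maf protein, was at 0.40 without overlap between the groups (FDR = 0.173, edgeR).

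Genes of the peroxisome, where catalase resides, were spread on both sides of 0. The 23 peroxisome assembly genes had a median of -0.02, with 10 positive and 13 negative. Pex11a, which takes part in peroxisome division, measured 11.9, 13.9, 7.004 and 13.6 CPM in saline rats and 23.2, 12.6, 27.1 and 15.2 CPM in METH rats. METH 2 lay within the saline range, and the log2 fold change of 0.75 (SE 0.25) did not pass the threshold (FDR = 0.285, edgeR), while Pex5l was lowest at -0.37 (FDR = 0.436). The 24 peroxisomal enzymes had a median of -0.07, with the D-aspartate oxidase Ddo at 0.36 (FDR = 0.501, edgeR), Pipox at -0.98 (SE 0.65, FDR = 0.574) on 1 to 28 reads per rat, and Hao2 at 0 in every rat. The 14 genes that produce superoxide or hydrogen peroxide had a median of -0.12, with 11 of them negative, among them the neuronal nitric oxide synthase Nos1 at -0.48 (FDR = 0.457, edgeR). Nox1, a subunit of an oxidase, was at 0.93 (SE 0.35, FDR = 0.352) with 16 to 43 reads per rat.

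**Figure D5:**
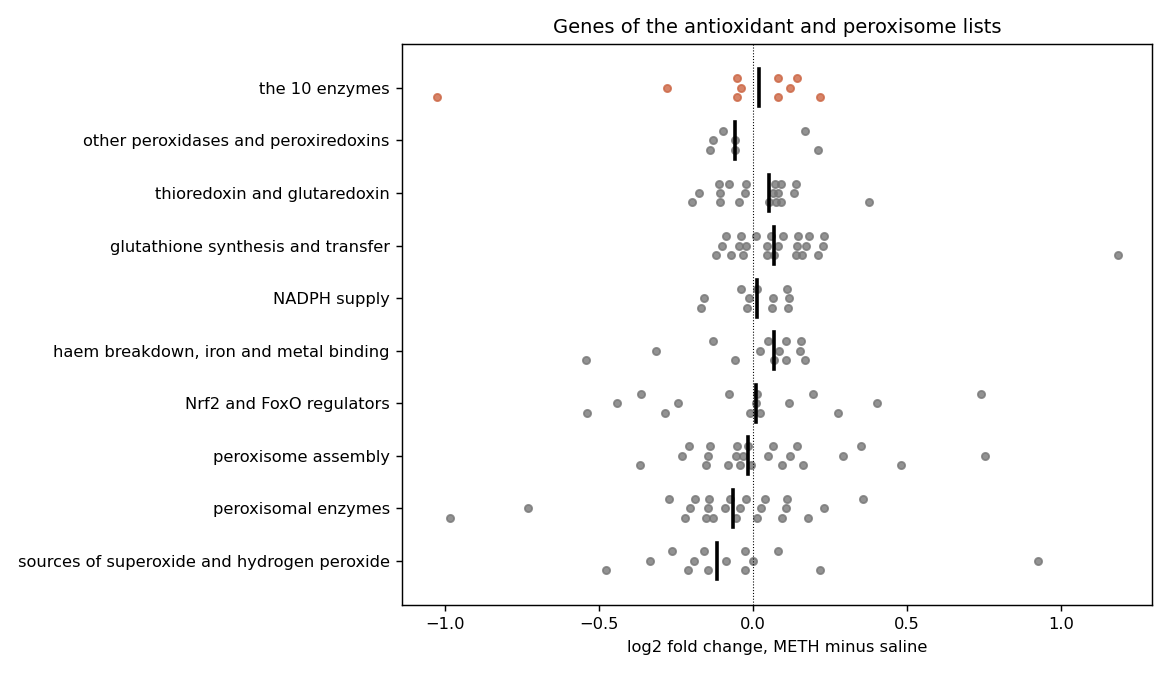
Log2 fold change (METH minus saline, edgeR) of every tested gene in the 10 members and the 9 other lists, with the median of each list marked. List medians lie between -0.12 and 0.07, and Cat at -1.03 is the lowest point.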

How the data were processed

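Raw counts of reads per gene were deposited by the authors as 1 table for 8 rats, with no normalization. According to the submitters' processing notes and the study's methods, paired-end reads were trimmed with Cutadapt 1.18, aligned to rn6 with STAR 2.7.0e and counted with featureCounts (Subread 1.6.4). The annotation, strand setting and handling of multiply mapped reads are not given in the sources used here, so genes with near-identical copies or antisense partners are less certain.

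From these counts, genes were kept by filterByExpr (minimum count 10), scaled by TMM and tested with edgeR 4.0.16 (quasi-likelihood, METH against saline, 4 rats each, no covariates) in R 4.3.3, with Benjamini-Hochberg adjustment over 12014 genes. A gene was called at an FDR under 0.05 and an average log2 CPM above 1. CPM values printed are counts over the TMM-scaled library size, and log2 CPM for patterns used a prior count of 2. Alternatives used DESeq2 1.42.0, limma 3.58.1, other scalings, filters and tests, a replicate block, and each rat left out. The script was tested on simulated data. p-values weigh the difference between the groups against the spread between these rats. The members, gene lists and marker lists were chosen with earlier results of these data known. Named genes are all members, the tested gene with the highest and the one with the lowest log2 fold change in each antioxidant list, called markers, the 5 genes nearest to Cat, and 3 tested neighbours on each side of it, and Actb; 1 gene named by this rule is not reported here. Other named genes (Mafk, Nrgn and some markers) were chosen after their values were seen. RefSeq GRCr8 served only for promoter windows, pseudogene names and gene order.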

Additional observations from a re-analysis of the deposited data

Results flagged for a closer look

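Of 112 groups of 4 rats tested (56 genes in both groups), 5 had 1 rat far from the other 3, measured by its gap to the nearest rat as a share of the group's whole range and read against Dixon's critical value for 4 samples. Chance flags about 1 in 20 groups. The 1 member among them was Prdx6, where METH 2 at 197 CPM lay below the other METH rats at 227 to 231 CPM (0.906). The other cases were marker genes: Opalin in saline 2 (0.887), Slc17a7 in saline 1 (0.991), and Oxt in saline 2 (0.894) and in METH 4 (0.988).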

How the results depend on the processing

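The log2 fold change of Cat, a description since Cat was selected on it, was -1.06 to -1.01 in 12 fits on all rats (-1.01 with the replicate block) and -1.11 to -0.93 in the 8 fits without 1 rat. Requiring an absolute log2 fold change above 1.5 left 12 called genes, 12 higher and 0 lower, and 0 members. Leaving out 1 rat gave 37 to 70 called genes, 35 to 66 higher and 2 to 9 lower, with the fewest (37, 35 and 2) without saline 2, and 4 lower without saline 4, METH 1 or METH 3. The total, higher and lower calls were 191, 141 and 50 with DESeq2, 168, 130 and 38 with edgeR's exact test, 170, 131 and 39 with the likelihood ratio test, and 100, 82 and 18 at an FDR under 0.1. Those first 3 tests called 2, 1 and 1 genes of the 9 other lists. Keeping every gene with at least 1 count gave 13 lower. With the replicate block the calls were 37, 35 and 2. Same-numbered rats did not deviate together (correlations 0.0102, -0.185, -0.201 and 0.0355), and only the rats numbered 4 correlated best with each other, so the numbers were not taken as pairs. A fit added after seeing the data, without saline 3 and METH 3, gave 37, 34 and 3, with Cat at -0.90. The cause of these shifts was not tested. Among other scalings, the largest shift of the median log2 fold change of all genes was to -0.04, with total counts. Depth limits Hmox1, Gpx3 and the marker and list genes with the lowest counts most.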
